A study of Mus musculus with 12 samples.

Results

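In the E14.5 mouse cortex 16293 genes were nearest to a 5mC or 5hmC peak. Of these, 110 (0.675%) passed a rule for highest expression in differentiative progenitors (DP). They are called genes highest in DP here, although further genes were highest in DP by a smaller margin or at a lower score. They were chosen as genes with an expression score in DP of at least 100 that was also at least 2 times the score in proliferative progenitors (PP) and at least 2 times that in neurons. The peaks nearest to these genes were 497 of the 55085 peaks of 5-methylcytosine (5mC), assigned to 98 genes, and 535 of the 47478 peaks of 5-hydroxymethylcytosine (5hmC), assigned to 96 genes. Together they were 1032 of 102563 peaks. Both marks were represented at 84 of the genes, whereas 14 genes had 5mC peaks alone and 12 had 5hmC peaks alone.

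The study asked how both marks of cytosine change as neural progenitors of the mouse cortex turn to neurogenesis. All 3 cell types were FAC-sorted at E14.5 from the cortex of double heterozygous embryos that carry a Btg2 RFP and a Tubb3 GFP reporter: PP lacked both reporters, DP expressed RFP without GFP, and neurons expressed GFP whether or not they expressed RFP. Sheared DNA was pulled down with an antibody against 5mC (MeDIP) or 5hmC (hMeDIP) after the barcoded DNA of the cell types had been mixed. The series lists 12 samples, 6 immunoprecipitates and their 6 inputs, and the deposited tables give for each peak a single mean log2 level per cell type, already averaged by the authors. The spread between replicates and the depth behind a level are therefore unknown here and no difference was tested (the p-values of the authors' own comparisons were not used). A peak was called a gain or a loss solely by size, that is, when its mean level changed at least 1.5-fold (0.58 on the log2 scale).

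DP are progenitors that express Btg2, an antiproliferative gene, and divide to generate neurons; many of them are intermediate progenitors of the subventricular zone, whose defining transcription factor is Eomes. A DP stands between a dividing stem cell and a postmitotic neuron, and a gene that is highest in DP is raised for a short part of the lineage and then lowered. 5mC at promoters and enhancers is commonly linked to silencing. TET enzymes oxidise 5mC to 5hmC, which is both a step towards demethylation and a mark that is abundant at enhancers and in the bodies of active neural genes.

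The cell types can be checked against their markers in the expression scores, which come from an earlier RNA-seq study of the same sorted populations and not from the cells used for (h)MeDIP. In PP, DP and neurons the scores of 10 DP markers summed to 71118.8, 196165 and 46303.8, but 5 of them (Eomes, Neurog2, Gadd45g, Mfng and Hes6) are among the 110 and so are highest in DP by the rule. The other 5 summed to 34350.8, 76297.3 and 30638.9, and 4 of them were highest in DP, Btg2 among them, whose reporter defined DP in the sort. Of 9 PP markers 7 were highest in PP, and 9 of 9 neuronal markers were highest in neurons. The other PP markers, Tead2 (16665.2, 18141.3 and 1472.8) and Glis3 (133.5, 616.6 and 44.5), were highest in DP, and Glis3 is among the 110. Markers of other cells were mostly highest elsewhere: 10 endothelial and pericyte markers summed to 2042.5, 783.3 and 263.7 in PP, DP and neurons, 5 microglial markers to 379.5, 232.6 and 85.5, and 5 markers of oligodendrocyte precursors to 686.9, 558.8 and 62.8. None of these 20 genes was among the 110, and none was listed at 0 in all 3 cell types. Kdr (195.3, 265.6 and 56.2), Olig2 (166.4, 291.6 and 5.8) and Olig1 (38.6, 64.1 and 0.7) were nevertheless highest in DP. The scores of 6 interneuron markers summed to 7369.7, 7725.8 and 13780.7, and that of the 1 blood gene with a peak was 139.5, 22.5 and 31.1. The 7 Cajal-Retzius markers summed to 368, 3821.4 and 40429, and a single gene of them, Ebf2, belonged to the 110.

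Most peaks lay far from the start of the gene to which they were assigned, and at 2 genes a 5hmC peak reached into the RefSeq window just upstream of the TSS that was at hand. Their upstream sequences are shown for their CpG sites, the main substrate of both marks, next to a measured peak. The windows are the 250 bases before the TSS in GRCm38.p6 (mm10), written 5′ to 3′ on the strand of the gene, with CpG in capitals. The window of Hes6, chr1:91414039-91414288 on the minus strand, has 12 CpG, and that of Mybpc1, chr10:88605153-88605402 on the minus strand, has 11. The peak at Hes6 covers the last 14 bases of the window and none of its CpG, and the peak at Mybpc1 covers the last 88 bases with 6 of the CpG.
Hes6: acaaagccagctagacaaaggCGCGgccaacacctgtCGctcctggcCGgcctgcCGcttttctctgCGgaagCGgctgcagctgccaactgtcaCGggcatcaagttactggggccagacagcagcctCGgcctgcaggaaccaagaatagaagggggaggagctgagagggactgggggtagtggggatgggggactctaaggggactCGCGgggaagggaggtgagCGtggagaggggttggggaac
Mybpc1: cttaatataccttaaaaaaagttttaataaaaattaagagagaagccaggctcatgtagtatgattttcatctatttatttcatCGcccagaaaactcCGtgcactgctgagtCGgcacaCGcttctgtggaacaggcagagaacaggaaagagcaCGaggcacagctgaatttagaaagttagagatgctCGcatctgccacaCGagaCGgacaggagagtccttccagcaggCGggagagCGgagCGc

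Hes6, a bHLH factor that promotes neuronal differentiation, had a 5hmC peak at chr1:91413878-91414052, across its TSS. The log2 level of this peak went from 5.38 in PP over 5.46 in DP to 4.95 in neurons, so that the mark hardly differed between PP and DP while the expression score of the gene went from 4444 to 11740.3. Mybpc1, which encodes a myosin-binding protein of muscle, had a 5hmC peak at chr10:88605013-88605240 with levels of 3.58, 4.41 and 5.06. Here 5hmC was higher in each later cell type, although the expression scores were 78.6, 452.1 and 1.2. Both windows hold CAGCTG, and that of Mybpc1 also holds CAGATG. These are forms of the E-box that bHLH factors such as Neurog2 can bind, and both strands were searched for them. RefSeq windows were at hand for 77 of the 110 genes (93 windows). CAGCTG was found in 19.4% of them and in 13.00% of all 32851 windows of this length, CAGATG in 17.2% and 14.4%, and the median number of CpG was 13 against 6.

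The expression scores that chose the genes describe them and are no finding. The median score in PP, DP and neurons was 107.9, 564.4 and 85.9, with a range in DP from 103.8 to 50496.7, and the median ratio of DP over PP was 3.79 and that of DP over neurons 4.47. A score of at least 1000 in DP was reached by 42 genes, and 53 genes were under 500. In 73 of the 110, the score in neurons was below that in PP. Sdk2, at 971.8 in PP and 1951.5 in DP, and Qsox1 lay just inside the ratio of 2, whereas Sstr2 and Btg2, whose reporter defined DP in the sort, lay just outside with a DP over PP or DP over neurons ratio of 1.99. Greb1 (103.8) and Slco2a1 (104.3) were just above the minimum score in DP, and Wif1 (95.3) and Pdlim3 (90.9) just below it. Scores come from bulk RNA of sorted cells, in which fewer cells of a type and less RNA per cell cannot be told apart.

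**Figure D1:**
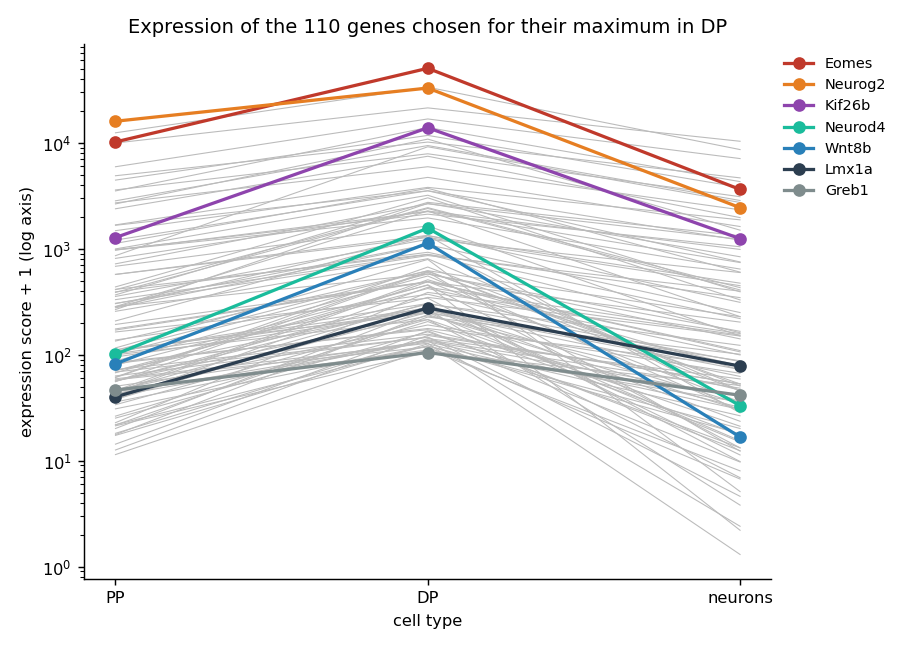
Expression score plus 1 of the 110 genes (log axis) in PP, DP and neurons, a line per gene, with 7 genes in colour. By the choice of the genes every line peaks in DP, from 103.8 (Greb1) to 50496.7 (Eomes).

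The 8 genes with the highest score in DP were, in this order, Eomes, Igsf8, Neurog2, Coro1c, Cbfa2t2, Gadd45g, Kif26b and Hes6. The scores of Eomes in PP, DP and neurons were 10187.6, 50496.7 and 3626.3. Neurog2, a proneural bHLH factor that drives the generation of glutamatergic neurons, had 15976.3, 32860.8 and 2440.5. Kif26b, a kinesin-family gene, stood out by its contrast, with 1274.5, 13862.5 and 1244. Some of these genes had few peaks: Igsf8 had a single 5mC peak and no 5hmC peak, Cbfa2t2 had 4 5hmC peaks and no 5mC peak, and Neurog2 had a single peak of 5hmC. None of the 4 5hmC peaks of Cbfa2t2, which encodes a transcriptional corepressor, changed 1.5-fold between PP and DP or between DP and neurons, but over both transitions 2 of them gained and 2 lost 5hmC.

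The genes had a median of 7 peaks over both marks, compared with 4 for all genes, and 14 had a single peak. The 8 genes with most peaks held 264 of the 1032 (25.6%). These were Gm16564 with 66, the transcription factor Nfatc2 with 45, Glis3 with 31, Tmem132c with 29, Lmx1a with 27, Megf11 with 23, Ust with 22 and Itga9 with 21. The nearest TSS is not always the gene in which a peak sits. Of the 5mC peaks, 182 lay in the body of a protein-coding RefSeq gene with the assigned symbol, 101 only in that of one with another symbol and 214 in neither. For the 5hmC peaks the counts were 187, 86 and 262. Only 98 of the 110 genes have such a RefSeq entry, and peaks of the others could not be counted in the gene assigned. Peaks of 4831426I19Rik and Fam129a were thus counted in Syne3 and Niban1, although the authors placed them inside the genes assigned. All 66 peaks of Gm16564, a predicted gene on chromosome 1, lay in the body of Smyd3 or of Kif26b.

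Peaks of genes highest in DP lay farther from the TSS than peaks in general. The median distance was 36528 bp for 5mC, against 20385 bp for all 5mC peaks, and 36112 bp for 5hmC, against 27216 bp. Within 5 kb of the TSS there were 33 5mC peaks (6.64%, against 16.0% of all) and 59 5hmC peaks (11.0%, against 14.8%). Beyond 100 kb there were 99 (19.9%, against 11.0%) and 126 (23.6%, against 17.4%). Genes highest in neurons, chosen by the same thresholds, also lay far from their peaks, with a median of 30760 bp for 5mC and 37309 bp for 5hmC, so that the distance of 5hmC peaks does not set genes highest in DP apart from them. The share inside genes was close to that of all peaks, at 40.0% against 40.2% for 5mC and 35.9% against 36.2% for 5hmC. Peak width was the same to within 1 bp, with medians of 143 and 165 bp against 144 and 164 bp, and the levels were alike: the median levels of 5mC in PP, DP and neurons were 5.00, 4.97 and 4.75 (all 5mC peaks 5.06, 5.05 and 4.87), and those of 5hmC 4.71, 4.74 and 4.78 (all 5hmC peaks 4.72, 4.71 and 4.75).

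**Figure D2:**
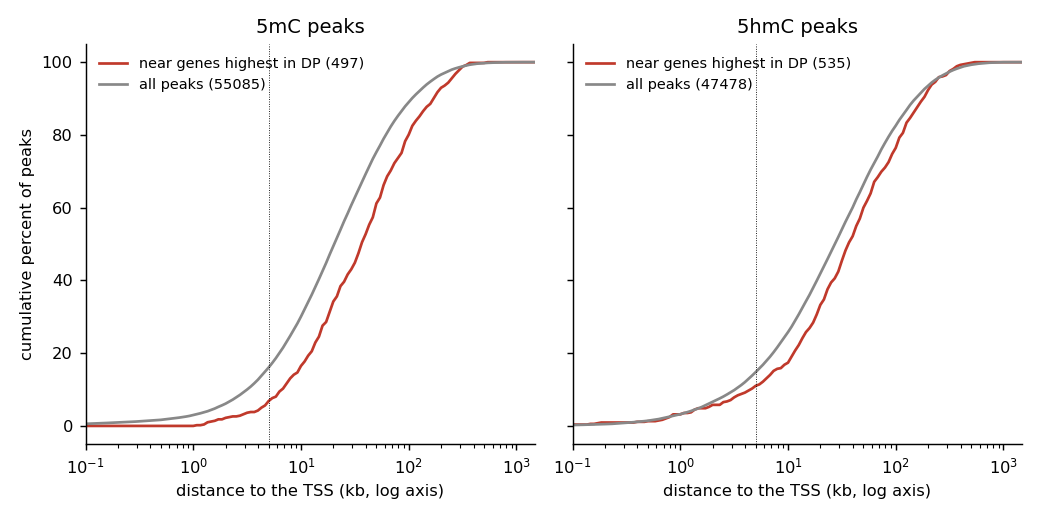
Cumulative percent of 5mC peaks (left) and 5hmC peaks (right) against distance to the TSS in kb (log axis), for the peaks of genes highest in DP (red) and for all peaks (grey). The dotted line marks 5 kb, and the red lines run to the right of the grey ones at the median, at 36528 against 20385 bp for 5mC and 36112 against 27216 bp for 5hmC.

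The median peak of the whole 5mC table fell by 0.18 on the log2 scale from DP to neurons, whereas the other median differences between consecutive cell types were within 0.03. Changes were therefore taken relative to the median change of all peaks of the mark, and levels are given as deposited. At the onset of commitment, from PP to DP, 86 of the 535 5hmC peaks gained the mark, or 16.1% (95% exact binomial interval 13.1 to 19.5%), when 11.2% of all 5hmC peaks did. The gains were spread over 46 genes, and 22 peaks in 18 genes (4.11%, against 4.68% of all) lost 5hmC. From DP to neurons 100 peaks (18.7%, interval 15.5 to 22.3%, against 16.5%) gained 5hmC and 38 (7.10%, against 7.07%) lost it. The excess over all peaks was thus larger in the first transition, in which the expression of these genes rises by the rule, than in the second, in which it falls; the difference between the transitions was not tested. At a fold of 2, the shares that gained 5hmC were 6.36% against 5.07% of all peaks in the first transition and 8.04% against 8.03% in the second.

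The same genes lost 5mC mainly in the second transition. From DP to neurons 69 of the 497 5mC peaks in 41 genes (13.9%, interval 11.0 to 17.2%) lost the mark, against 9.36% of all 5mC peaks, and 27 (5.43%, against 5.12%) gained it. From PP to DP 36 peaks (7.24%, interval 5.12 to 9.89%, against 5.44%) lost 5mC and 26 (5.23%, against 4.6%) gained it. Over both transitions, from PP to neurons, 75 5mC peaks (15.1%, against 10.2%) lost and 28 (5.63%, against 5%) gained 5mC, and 147 5hmC peaks (27.5%, against 22.1%) gained and 31 (5.79%, against 7.71%) lost 5hmC. The median peak moved little: the median change in 5mC was -0.01 in the first and -0.04 in the second transition, and that in 5hmC 0.05 in both. The intervals cover counting error and treat the peaks of a gene as independent, which they are not. When each gene was given the same weight, an alternative chosen after seeing the data, 15.9% gained 5hmC from PP to DP and 12.3% lost 5mC from DP to neurons. The share over all genes was not computed with this weight, so these values cannot show whether an excess remains.

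Other classes of genes, chosen by the same thresholds for a maximum in neurons (1701 genes) or in PP (394 genes), served for comparison. From PP to DP 12.3% of the 7483 5hmC peaks of genes highest in neurons gained 5hmC (interval 11.5 to 13.0%), and 9.29% of the 1497 of genes highest in PP (7.86 to 10.9%), both below the interval for genes highest in DP. From DP to neurons the share was 18.8% for genes highest in neurons and 12.9% for genes highest in PP, so that genes highest in DP, at 18.7%, stood with the neuronal genes. For loss of 5mC from DP to neurons the shares were 12.9% and 7.99%, and again genes highest in DP, at 13.9%, stood with the neuronal genes although their expression had fallen. These differences have no replicate check.

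**Figure D3:**
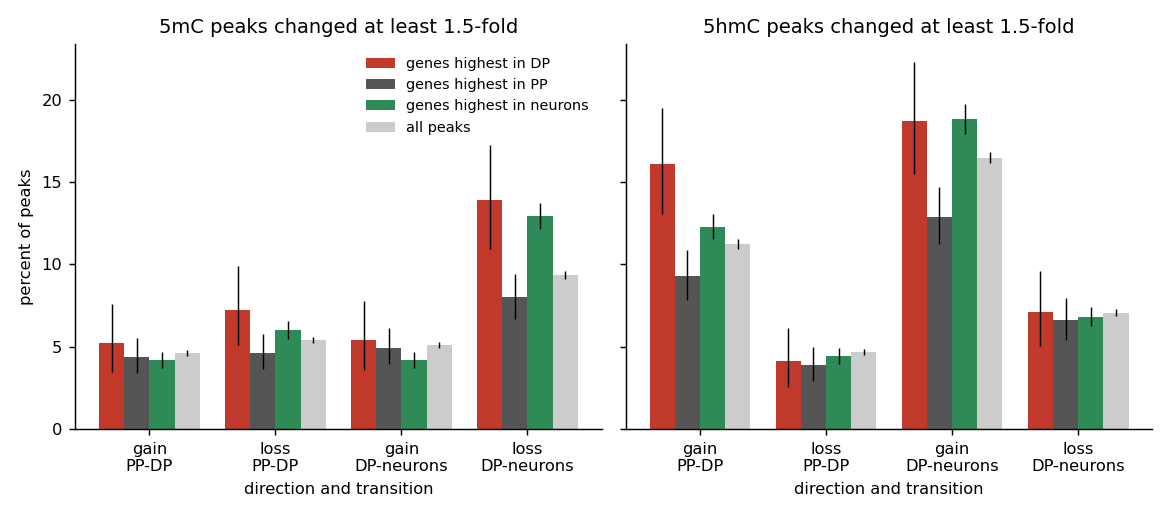
Percent of 5mC peaks (left) and 5hmC peaks (right) that gained or lost the mark at least 1.5-fold in each transition, for genes highest in DP, in PP and in neurons and for all peaks; error bars are 95% exact binomial intervals. The bar for 5hmC gain from PP to DP is 16.1% for genes highest in DP, 9.29% for PP, 12.3% for neurons and 11.2% for all peaks.

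When the 5hmC peaks were split by distance, a split chosen after seeing the data, the share of gains was highest within 5 kb of the TSS, although most of the gains lay farther away. Of the 59 5hmC peaks within 5 kb, 17 in 13 genes gained 5hmC from PP to DP (28.8%, interval 17.8 to 42.1%), against 10.4% of all 5hmC peaks within 5 kb, and 2 lost it. From 5 to 50 kb 40 peaks gained it (15.3% against 11.6%), and beyond 50 kb 29 did (13.6% against 11.0%). From DP to neurons 16 of the 59 gained 5hmC (27.1%, against 16.5%). The 13 genes were 9630028B13Rik, BC034090, Btbd17, Coro1c, Dhrs4, Fam43a, Fos, Glis3, Hes6, Mfap4, Mfng, Mybpc1 and Serping1. 5hmC gains from PP to DP were also more frequent at genes with a score of at least 1000 in DP, with 42 of 212 peaks (19.8%), than at those under 500, with 37 of 255 (14.51%), but their intervals, 14.7 to 25.8% and 10.4 to 19.4%, overlapped.

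The largest rises in 5hmC from PP to DP among peaks of sufficient level lay at BC034090, Sdk2 and 9630028B13Rik. The peak of the uncharacterised gene BC034090, at chr1:155233364-155233538, had levels of 2.08, 4.75 and 4.97 in PP, DP and neurons. It lay 727 bp upstream of the TSS in the authors' annotation but inside the RefSeq body of the gene. A second peak, 824 bp into the gene by the authors' annotation, had 2.40, 3.86 and 4.94. The peak of Sdk2, a synaptic adhesion molecule of the immunoglobulin superfamily, lay inside the gene and had 3.40, 5.72 and 6.36. That of 9630028B13Rik, 735 bp upstream, had 3.29, 5.04 and 4.84. At the first peak of BC034090 and that of 9630028B13Rik the level in DP was already close to that in neurons, whereas the peak of Sdk2 rose by a further 0.66. The largest falls were smaller, at Prtg (4.73 to 3.89), Cxcl12 (4.80 to 3.97) and Htra1 (4.97 to 4.17).

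Among genes known from intermediate progenitors, 8 of the 23 with a peak were highest in DP by the rule: Eomes, Gadd45g, Neurog2, Mfng, Hes6, Mfap4, Coro1c and Kif26b. Of their 41 5hmC peaks 14 gained 5hmC from PP to DP and 1 lost it, with a median change of 0.38, when 11.2% of all 5hmC peaks gained and 4.68% lost it. From DP to neurons 13 gained and 4 lost it, when 16.5% and 7.07% of all did. The peaks of the 15 other genes of the list gained it at 26 and 36 of 144. Of the 18 5mC peaks of the 8 genes, 1 lost 5mC from PP to DP and 2 did so from DP to neurons, and 1 gained it in the second transition, when 5.44% of all 5mC peaks lost it in the first and 9.36% lost and 5.12% gained it in the second.

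Eomes had 3 5hmC peaks, all inside the gene. The peak at chr9:118483712-118483847 went from 1.99 in PP over 3.99 in DP to 5.14 in neurons, and the peak at chr9:118484312-118484464 had 1.65, 3.46 and 5.07, whereas the other, at chr9:118483086-118483242, stayed at 5.61, 5.54 and 5.31. 5hmC therefore rose further into neurons at 2 peaks while the expression score of Eomes went from 50496.7 to 3626.3. The 5mC peak that overlapped the second of them had 4.18, 4.27 and 3.10, a fall in neurons alone. The levels of PP at both of them were near the bottom of the range, since the lowest level at any 5hmC peak of the 110 genes was 0.667.

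Mfap4, which encodes a microfibril-associated glycoprotein, had 8 5hmC peaks and no 5mC peak. On either side of its TSS the mark moved in opposite directions. The peak 651 bp upstream, at chr11:61484707-61484855, had levels of 4.56, 3.92 and 1.91, whereas the peaks 762 and 2472 bp downstream, at chr11:61486129-61486258 and chr11:61487788-61488019, had 2.26, 4.65 and 5.71 and 3.11, 4.74 and 5.77. The other 5 peaks changed less than 1.5-fold in each transition. From PP to neurons 4 of the 8 peaks gained 5hmC, some of these 5 among them, and 1 lost it. A peak inside Hes6, 2466 bp from the TSS at chr1:91411520-91411624, had 2.15, 3.85 and 5.01, in contrast to the level peak at its TSS described above.

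Mfng, a fringe glycosyltransferase that modifies Notch receptors, gained 5hmC from PP to DP at 4 of 6 peaks. One of them, at chr15:78754675-78754836 downstream of the gene, was high in DP alone (3.85, 4.96 and 4.06), and the other 3 were at least as high in neurons, as at chr15:78761350-78761524 with 4.30, 5.15 and 6.20. Mfng also had a 5mC peak that was low in DP alone, at chr15:78780520-78780703, 7137 bp upstream and inside Card10, with 4.31, 3.20 and 4.30. Coro1c, an actin-binding coronin, gained 5hmC from PP to DP at 2 of 5 peaks and from DP to neurons at 4 of 5. Kif26b gained it at 2 of 6 from PP to DP; one of these, at chr1:178484012-178484175 inside Efcab2, was again high in DP alone (3.46, 4.50 and 3.41). Gadd45g, a stress-response and cell cycle gene that has been linked to DNA demethylation, changed little, with 1 of its 8 5hmC peaks gaining from PP to DP (4.82 to 5.45). The single 5hmC peak of Neurog2 stayed at 4.93, 4.81 and 5.02.

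**Figure D4:**
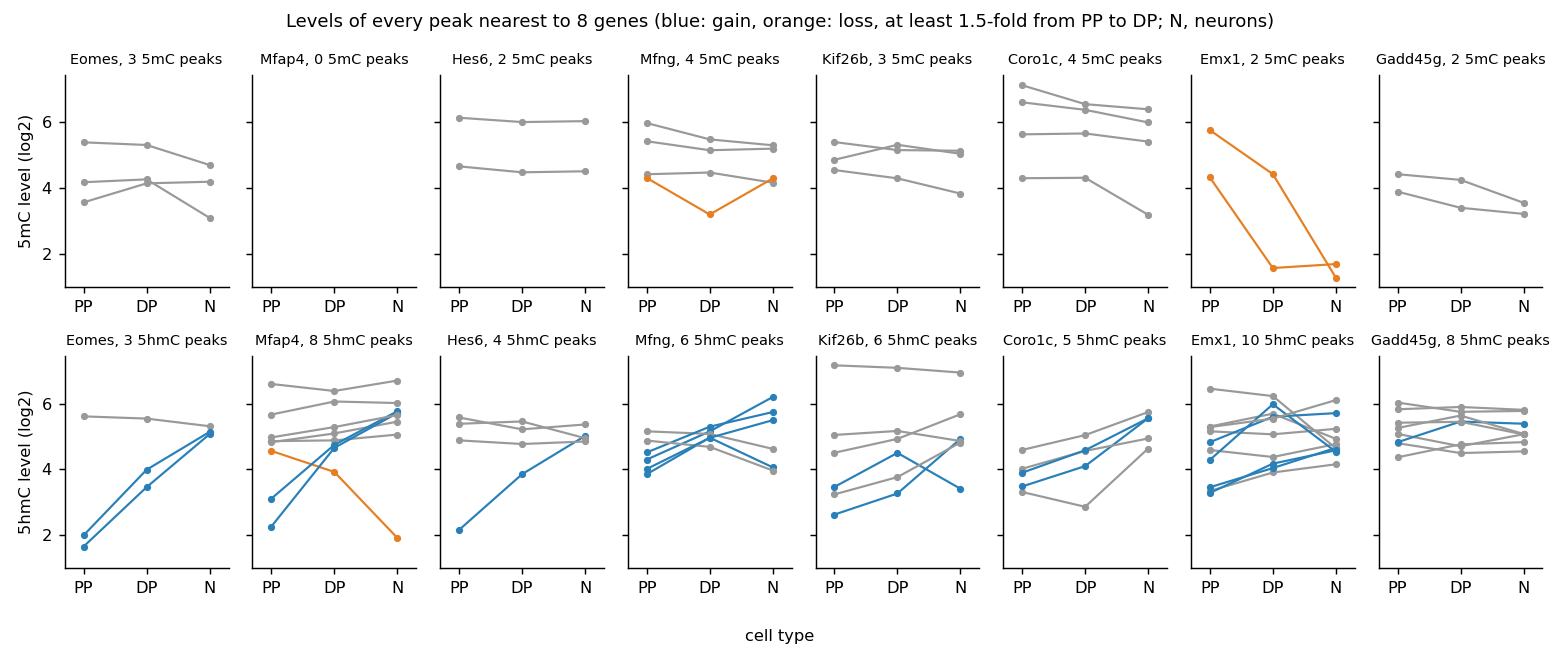
Log2 level of 5mC (top) and 5hmC (bottom) in PP, DP and neurons (N) at every peak nearest to 8 genes, a line per peak; blue lines gained and orange lines lost the mark at least 1.5-fold from PP to DP. Blue lines are seen in the 5hmC panels, such as Eomes from 1.99 to 3.99. Orange lines are seen at the 2 5mC peaks of Emx1, at a 5mC peak of Mfng and at a 5hmC peak of Mfap4.

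Of 13 neurogenic bHLH factors with a peak, Neurog2, Neurod4 and Hes6 met the rule, which 110 of all 16293 genes (0.675%) met. The pathway lists were chosen with earlier results known, so such counts are no finding about the pathways. Neurod4, which acts downstream of the proneural factors, had a single 5hmC peak with 4.75, 4.92 and 4.35. Of 26 Notch genes Mfng and the ligand gene Dll4 were included, and the single peak of Dll4, of 5mC, had 5.52, 5.38 and 5.36. Gadd45a and Gadd45g were the members of both the 17 genes for cell cycle exit and the 12 for methylation and demethylation. A 5mC peak 20763 bp upstream of Gadd45a had 4.57, 5.12 and 3.92 and thus a loss from DP to neurons. Of 28 genes of migration and guidance, the chemokine gene Cxcl12 was included. Its 11 5mC peaks showed 3 losses in the first and 2 in the second transition, against 5.44% and 9.36% of all 5mC peaks. Its 6 5hmC peaks showed 1 loss in the first and 1 gain in the second transition, against 4.68% and 16.5% of all 5hmC peaks.

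The cortical hem is the dorsomedial edge of the cortex that secretes Wnt proteins. A list of genes of Wnt signalling, the hem and the roof plate, drawn up after the 110 had been seen so that its overlap with them is no finding, had 26 genes with a peak, of which 12 were included. They were the ligand genes Wnt2b, Wnt3a and Wnt8b, the Wnt agonists Rspo1 and Rspo2, the receptor gene Fzd10, the Wnt targets Sp5 and Rnf43, and Lmx1a, Msx1, Zic1 and Zic4, transcription factors of the dorsal midline. The scores of Wnt8b were 80.9, 1130.9 and 15.7. Over the 26 genes the summed score was 18334.3, 33429.2 and 38996.9, and 22 were highest in DP; whether cells of the hem contributed to the marks was not tested.

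At the 12 genes 5hmC gains from PP to DP were 9 of 50 peaks and losses 1, against 11.2% and 4.68% of all 5hmC peaks. From DP to neurons 6 gained and 6 lost, against 16.5% and 7.07%. Of their 45 5mC peaks 5 lost and 2 gained from PP to DP (5.44% and 4.6% of all 5mC peaks), and 4 lost and 3 gained from DP to neurons (9.36% and 5.12%). Lmx1a held 4 of the 9 gains, among 16 5hmC peaks. A peak of Zic1 at chr9:91587500-91587650, 221765 bp upstream, had levels of 2.97, 4.57 and 4.10. The peaks of Msx1, Rspo2 and Wnt3a showed no gain of 5hmC in either transition, as at chr5:37836849-37837073 near Msx1 with 7.62, 7.50 and 7.35. Nor did the single 5hmC peaks of Sp5, Zic4 and Wnt8b. The 5mC peaks of Wnt8b were high, up to 6.66, 7.04 and 6.58, and its single 5hmC peak had 4.81, 4.51 and 3.89. Wnt2b carried one of the largest late gains, described with the shared peaks.

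A second list drawn up in the same way, of extracellular matrix and meningeal genes, had 14 genes with a peak, 11 of them among the 110. It included Prelp, a small leucine-rich proteoglycan (114.8, 791.1 and 4.1), and Loxl1, a lysyl oxidase (809.9, 2267.2 and 227.6). The scores of the 14 summed to 2830.8, 10245.5 and 1943.6, and 11 were highest in DP. The other 3, which are highest in PP, were the fibroblast collagen gene Col1a1 (463.3, 50.6 and 28.2), Foxd1 (7.7, 0.6 and 0) and Ogn (29.3, 12.7 and 0.4); the part of meningeal cells in the levels of DP was not tested. Of the 44 5hmC peaks of the 11 genes 7 gained and 3 lost from PP to DP (11.2% and 4.68% of all), and 6 gained and 5 lost from DP to neurons (16.5% and 7.07% of all). Of the 66 5mC peaks 9 lost 5mC from DP to neurons (9.36% of all) and 4 from PP to DP (5.44% of all). At Prelp the 5hmC peak at chr1:133915148-133915406 had 5.43, 6.14 and 6.79, and the 5mC peak that it overlapped 6.36, 6.26 and 6.03.

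Emx1, a homeobox gene of the dorsal telencephalon with scores of 4885.8, 10161.4 and 4663.8, had both of its 5mC peaks among those that lost 5mC from PP to DP. The peak at chr6:85207109-85207268, 19749 bp from the TSS, had levels of 4.33, 1.57 and 1.69. That at chr6:85220056-85220170, inside the neighbouring Sfxn5, had 5.77, 4.43 and 1.28. The 5hmC peak at the second site, chr6:85220085-85220241, had 4.28, 5.98 and 4.53 and so was high in DP alone, while the 5hmC peak at the first site fell late, with 6.45, 6.23 and 4.64. Of the 10 5hmC peaks assigned to Emx1, 4 gained from PP to DP, when 11.2% of all 5hmC peaks did.

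Other large changes in 5mC were found at Mybpc1, Glis3 and Fzd10. The peak inside Mybpc1 at chr10:88581347-88581545 had 5.57, 4.44 and 5.73, a fall in DP that was made up in neurons. A peak of Glis3, a zinc finger factor, had 6.23, 5.64 and 4.22. It lay 67124 bp upstream of the TSS in the authors' annotation but inside the RefSeq body of the gene. In all, 7 of the 16 5mC peaks of Glis3 lost 5mC from DP to neurons, when 9.36% of all 5mC peaks did. A peak of 4831426I19Rik inside the gene rose in DP (4.29, 5.15 and 3.99), and a peak 58942 bp upstream of 0610040J01Rik, inside Nwd2, rose from PP to DP (4.07, 5.10 and 5.14). A peak far upstream of Has2, a hyaluronan synthase, rose late (5.06, 4.69 and 5.23). In 5hmC the largest late falls were those of a peak 37768 bp upstream of the immediate early gene Fos, with 4.30, 4.79 and 2.97, and of Emx1. The largest late rises were those of Abcb9 (1.40, 2.48 and 5.27), Wnt2b and Lmx1a (1.65, 2.28 and 4.78), all from low levels in PP.

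The genes with most peaks differed in how many of them changed; over all peaks, 11.2% gained 5hmC in the first and 16.5% in the second transition, and 5.44% and 9.36% lost 5mC. Of the 33 5hmC peaks of Gm16564, 8 gained 5hmC in the first and 7 in the second transition. Of the 17 of Nfatc2 3 and 9 did so, and of its 28 5mC peaks 1 lost 5mC in the first and 4 in the second transition. Glis3 gained 5hmC at 2 and 5 of 15 peaks. Megf11 gained it at 0 and 5 of 16, and Tmem132c at 1 and 1 of 13. Ust, a uronyl sulfotransferase gene, showed 1 gain among 6 5hmC peaks, in the second transition. Itga9, an integrin subunit, lost 5mC at 1 and 4 of 16 peaks.

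The genes were chosen for a maximum in DP, yet few of their peaks had that shape. 5hmC was at least 1.5-fold higher in DP than in both PP and neurons at 9 peaks of 9 genes, 1.68% (interval 0.772 to 3.17%), when 0.805% of all 5hmC peaks had this shape. It was lower in DP than in both at 5 (0.935%, against 1.34%). For 5mC, 5 peaks (1.01%, against 1.26%) were higher and 8 (1.61%, against 1.68%) lower in DP. Both differences of such a shape use the same level of DP, so that an error in this level enters both. The 9 5hmC peaks were those of Emx1, Mfng and Kif26b given above and peaks of Htra1 (4.26, 4.97 and 4.26), Tmem132c, Crb1, Fign, Cbfa2t2-ps1, a pseudogene whose score cannot be told apart from that of Cbfa2t2 where they share reads, and Gm16564. The 8 5mC peaks low in DP lay at Mfng, Mybpc1, Tacr1, Ust, Cxcl12, Glis3 and, with 2 peaks, Ccno (4.45, 3.49 and 4.09, and 4.46, 3.77 and 4.21).

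Peaks of both marks overlapped by at least 1 bp at 55 pairs in 39 of the genes, which is 11.1% of their 5mC and 10.3% of their 5hmC peaks. From PP to neurons 17 pairs in 15 genes (30.9%) had less 5mC and more 5hmC, each at least 1.5-fold, when 18.8% of all 6735 shared pairs did. The converse, more 5mC with less 5hmC, was seen at 0 of the 55 and at 0.223% of all pairs. From PP to DP 5 pairs (9.09%, against 3.19%) had the first pattern, and from DP to neurons 12 (21.8%, against 12.5%). Over the 55 pairs the median change from PP to neurons was -0.50 in 5mC and 0.69 in 5hmC, and over all pairs -0.15 and 0.41.

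The order of both changes can be read from the levels of the 17 pairs. In PP, DP and neurons their median level of 5mC was 4.86, 4.79 and 3.31, and that of 5hmC 3.42, 4.44 and 5.63. 5hmC in DP lay between PP and neurons at 16 of the 17, and 5mC at 12. By DP, 5hmC had risen at least 1.5-fold at 10 pairs and 5mC had fallen by as much at 5, and from DP to neurons 13 pairs lost 5mC and 13 gained 5hmC, 9 of them both. Most of the loss of 5mC at these sites was thus found between DP and neurons, when the expression of the genes had fallen again, whereas 5hmC rose in both transitions. The pairs were selected by their change from PP to neurons, so these levels describe them and test nothing. Over all 6735 shared pairs, which were not so selected, 21.4% gained 5hmC and 7.66% lost 5mC from PP to DP. From DP to neurons 34.0% gained 5hmC and 20.8% lost 5mC. In shared pairs in general, too, 5mC losses were more frequent in the second transition and 5hmC gains were found in both. This timing is thus not particular to genes highest in DP. The shares do not follow single pairs, so they cannot give the order of both changes within a pair.

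The pairs lay at Btbd17, Ppp1r17, Coro1c, Htra1, Wnt2b, Cckar, Eomes, Prtg, Megf11, Sdk2, Fzd10, Gm16564, Glis3, Itga9 and Nptx2, of which the last 2 had 2 pairs each. At Btbd17 the pair, at chr11:114797328-114797479, lay 1459 bp upstream of the TSS in the authors' annotation but inside the RefSeq body of the gene. There 5mC had already reached its low level in DP (4.15, 2.21 and 2.10) while 5hmC went on to rise (2.79, 4.44 and 5.48). At Sdk2 5mC had levels of 7.43, 6.60 and 6.02. At Wnt2b the pair lay 44143 bp upstream inside Cttnbp2nl, with 4.44, 3.55 and 3.31 in 5mC and 2.31, 3.18 and 5.84 in 5hmC. In these 3 genes 5mC fell by DP.

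Itga9 and Fzd10 are examples of the later course. A pair inside Itga9 at chr9:118701197-118701312 had 5.32, 5.50 and 1.94 in 5mC, no fall in DP and the largest fall in neurons among the 17, when 5hmC had 4.67, 5.77 and 6.14. A pair downstream of Fzd10 at chr5:128667873-128668015 had 7.84, 7.72 and 6.005 in 5mC and 5.40, 6.39 and 6.94 in 5hmC. At Ppp1r17, an inhibitor of protein phosphatase, the pair 5551 bp upstream had 6.15, 5.90 and 4.91 in 5mC and 3.04, 4.31 and 5.63 in 5hmC. At Nptx2, a neuronal pentraxin, the pair 7716 bp into the gene had 3.85, 3.62 and 1.86 in 5mC and 3.01, 4.36 and 5.15 in 5hmC.

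**Figure D5:**
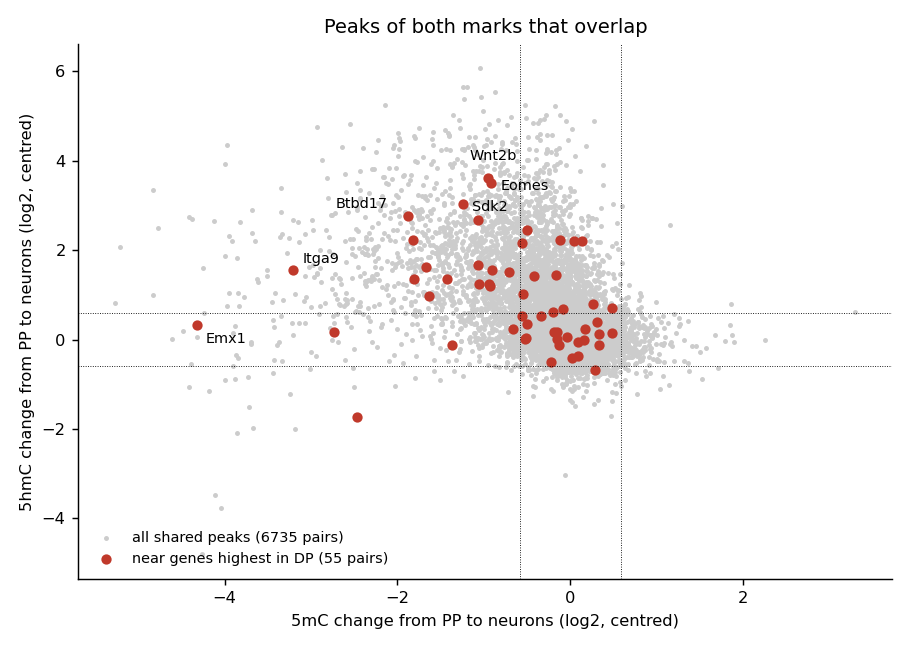
Change in 5mC against change in 5hmC from PP to neurons (log2, relative to the median peak) at pairs of overlapping peaks, for all 6735 pairs (grey) and for the 55 of genes highest in DP (red); dotted lines mark 1.5-fold. The upper left field holds 17 red points, and the lower right field none.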

How the data were processed

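MeDIP and hMeDIP reads of PP, DP and neurons were aligned by the authors to mm10 with BWA 0.7.8-r455, peaks were called with SICER 1.1, kept when found in all replicates of a cell type, and left out when they overlapped repeats, and HOMER 4.7 gave the nearest TSS. The deposited levels are log2 mean read levels that the authors normalised by TMM in DiffBind and averaged over replicates. The deposited expression score, whose scale is not named, came from an earlier RNA-seq study of the authors, as did its changes. The distance in bp and the side of the TSS are the authors' annotation, and a peak upstream of their TSS can lie inside the RefSeq body. Columns of the authors' own comparisons (folds, p-values and adjusted p-values of peaks and expression) were not used. The methods name 3 biological replicates, which the labels and tables do not tell apart. The paper reports the unique reads per sample. The tables used here hold neither counts nor levels of single replicates, so the depth behind each level is unknown, no test was run, and values have no replicate error.

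A change is the difference of 2 log2 levels minus the median difference over all peaks of the mark, called at 1.5-fold. All rows were used. Intervals are 95% exact binomial. The genes, lists and alternatives were chosen with earlier results of these data known. Named were the 8 genes with most peaks, the 8 with the highest score in DP, the 3 largest changes per mark, transition and direction (both levels at least 2, one at or above the median of the mark), members of the lists, shared peaks with opposite changes, and genes at the thresholds. Peaks near other genes, as those within 5 kb or at Emx1, were in part named after their values were seen, and loci on chromosome 18 were not described. RefSeq GRCm38.p6 gave gene bodies, found by symbol for 102 of the 110 genes, and upstream windows. Peaks were placed in the bodies of protein-coding genes alone, to which 98 of the 110 belong. Peak sequences were not used here. Alternatives were no centring, higher levels, a fold of 2, other expression ratios, 50 kb and 2 kb distance limits, autosomes, repeated rows, the gene with most peaks left out, and a wider overlap of shared peaks; equal weight per gene and leaving out peaks in another gene were added after seeing the data. Python 3.11.15, pandas 2.3.3, numpy 2.4.6, scipy 1.17.1 and matplotlib 3.10.9 were used, and the steps were tested on simulated data.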

Additional observations from a re-analysis of the deposited data

How the results depend on the processing

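Of 181 alternative values of 19 results, 154 moved by less than their interval and 27 moved by more. The median 5mC change from PP to DP, -0.01 and thus close to 0, changed sign at levels at or above the median (0.0095) and with equal weight per gene (0.011); no other median did. A larger fold calls fewer changes by construction; the cause of the other moves was not tested. Without centring, from DP to neurons 2.01% of the 5mC peaks gained and 20.3% lost 5mC (2.26% and 15.5% of all 5mC peaks), with a median of -0.22. Among peaks at or above the median level, 5mC was gained by 1.69% and lost by 2.97% from PP to DP and gained by 1.69% and lost by 10.6% from DP to neurons (all such peaks 2.06%, 2.20%, 2.20% and 5.55%). At these levels 0.424% of the 5mC peaks were lower in DP (all such peaks 0.428%). 5hmC was lost by 2.56% and 4.76% (all such peaks 2.73% and 4.60%) and higher in DP at 0.733%, which is 2 peaks (all such peaks 0.493%). At a fold of 2, 5mC was gained by 1.01% and lost by 2.01% from PP to DP, gained by 1.01% and lost by 4.83% from DP to neurons (all peaks 0.659%, 0.960%, 0.704% and 3.30%), and 0 and 0.604% were higher and lower in DP (all peaks 0.123% and 0.180%). At that fold 5hmC was gained by 6.36% and lost by 0.187% from PP to DP, gained by 8.04% and lost by 1.87% from DP to neurons (all peaks 5.07%, 0.560%, 8.03% and 1.19%), 0.374% and 0.187% were higher and lower in DP (all peaks 0.0990% and 0.171%), and 10 shared pairs had less 5mC and more 5hmC in neurons than in PP. Within 2 kb of the TSS lay 2.21% of the 5mC and 5.79% of the 5hmC peaks. Among peaks within 50 kb the median 5hmC change from PP to DP was 0.10. Thus the excess of 5hmC gains over all peaks from DP to neurons was not seen at a fold of 2, and that from PP to DP was smaller. No paired analysis was possible because the tables hold 1 mean per cell type, and for the same reason no replicate could be left out; how depth limits single peaks is unknown.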
